A study of Rattus norvegicus with 12 samples.

Results

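A set of 6 transcripts of the hypoxia-inducible factor (HIF) and glycolysis axis, Hif1a, Slc2a1, Pfkfb3, Pgk1, Ldha and Pdk1, was followed through 12 rat retinal RNA-seq libraries. The genes were chosen by their Ensembl identifiers, and 6 of 6 were found among the 32883 genes of the deposited table. The symbols come with the list of identifiers. Neither the table nor the reference annotation pairs Ensembl identifiers with symbols, so the pairing could not be checked here. Retinas were from Sprague Dawley rats of wild-type genotype, aged 18 days after birth, and formed 4 groups of 3 libraries. OIR mimic retinas had oxygen-induced retinopathy (OIR) and were given a synthetic mimic of miR-143, a microRNA, and OIR scrambled retinas had OIR and received a scrambled RNA. Sham mimic and sham scrambled retinas came from sham controls with the same pair of injected RNAs. OIR is a rodent model in which raised or fluctuating oxygen disturbs the growth of the retinal vessels, and the under-supplied retina later forms abnormal vessels. The study was set up, by its title, to learn what miR-143 does in retinopathy brought on by ischaemia.

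HIF-1 is a transcription factor of an oxygen-regulated alpha subunit, encoded by Hif1a, and a constant beta subunit. In well-oxygenated cells the alpha protein is hydroxylated and degraded, so its activity is set mainly at the protein level, which these RNA data do not measure. When oxygen falls, HIF-1 raises genes for glucose uptake (Slc2a1, the transporter GLUT1), glycolysis (Pgk1) and lactate production (Ldha). It also raises Pfkfb3, which drives glycolysis by making fructose 2,6-bisphosphate, the allosteric activator of phosphofructokinase. Another such gene is Pdk1, which encodes a kinase that inhibits pyruvate dehydrogenase. The retina is known for making lactate even with oxygen present, mainly in photoreceptors, and GLUT1 carries glucose across its vessels and pigment epithelium.

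HIF-1 binds a short core element, ACGTG or GCGTG. The stretches upstream of the transcript start are printed for the genes that passed the test in at least one comparison of OIR with sham and that have an entry in the RefSeq promoter table (build GRCr8, all on the plus strand). They show how many such letters each carries. Symbols matched that table for 5 of the 6 genes, all but Pgk1. Each line gives the 250 bases before the start, 5′ to 3′, with matches to ACGTG or GCGTG on either strand in capitals. The windows are chr1:106507842-106508091 for Ldha, chr3:77113264-77113513 for Pdk1, chr17:71944683-71944932 for Pfkfb3 and chr6:98359648-98359897 for Hif1a.
Ldha: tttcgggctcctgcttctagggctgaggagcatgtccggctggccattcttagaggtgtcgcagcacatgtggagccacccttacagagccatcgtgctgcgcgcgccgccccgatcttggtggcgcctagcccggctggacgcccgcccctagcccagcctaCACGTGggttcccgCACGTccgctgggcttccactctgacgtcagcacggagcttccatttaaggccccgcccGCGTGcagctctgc
Pdk1: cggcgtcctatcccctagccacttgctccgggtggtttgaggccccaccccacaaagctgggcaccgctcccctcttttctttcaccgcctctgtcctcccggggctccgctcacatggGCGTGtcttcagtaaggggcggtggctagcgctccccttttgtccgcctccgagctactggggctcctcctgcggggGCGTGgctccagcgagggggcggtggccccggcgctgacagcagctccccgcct
Pfkfb3: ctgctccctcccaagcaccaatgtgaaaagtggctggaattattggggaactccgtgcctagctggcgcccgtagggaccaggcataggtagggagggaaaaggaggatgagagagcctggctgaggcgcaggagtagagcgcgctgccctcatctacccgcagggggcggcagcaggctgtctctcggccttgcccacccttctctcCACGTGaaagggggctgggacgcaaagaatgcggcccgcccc
Hif1a: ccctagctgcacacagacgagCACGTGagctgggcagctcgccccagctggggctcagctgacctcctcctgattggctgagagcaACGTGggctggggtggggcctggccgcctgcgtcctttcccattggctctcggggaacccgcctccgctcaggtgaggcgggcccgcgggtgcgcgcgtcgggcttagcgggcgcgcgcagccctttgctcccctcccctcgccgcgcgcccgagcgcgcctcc

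All 5 genes with an entry had at least 2 matches. There were 4 for Ldha, 2 for Pdk1, 4 for Slc2a1, 2 for Pfkfb3 and 3 for Hif1a. The palindrome CACGTG counts once on each strand and gives 2 of the matches in Ldha, Pfkfb3 and Hif1a. Of the 33469 windows of the same length in the table, 36.7% held at least 1 match, 16.0% held 2 or more and 2.44% held 4 or more. These letter matches are a description, and no binding was measured.

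**Figure D1:**
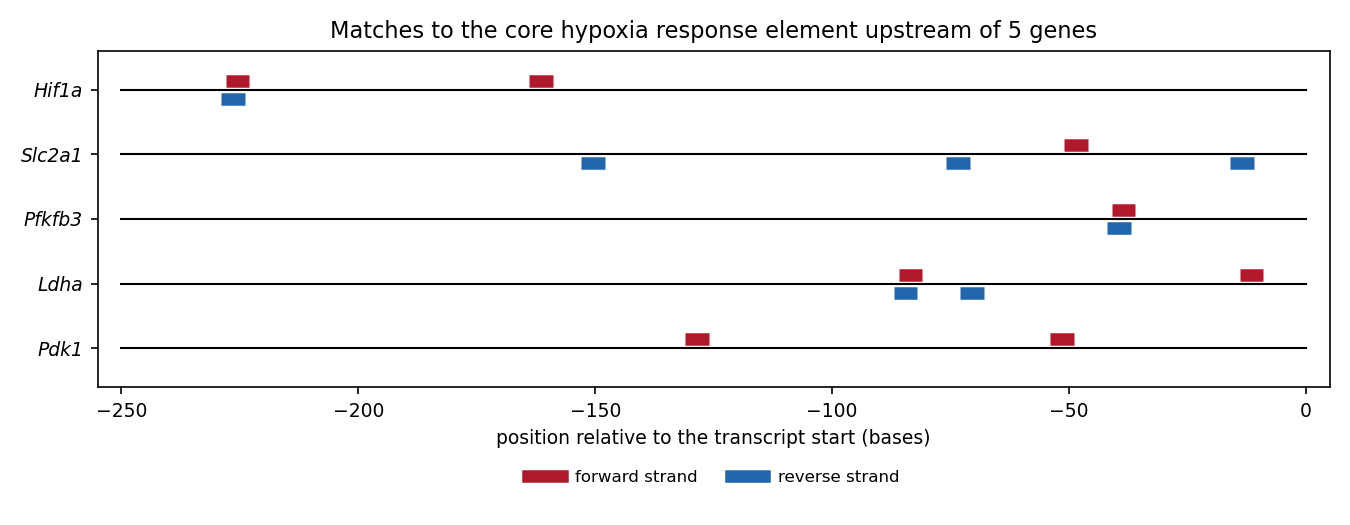
Positions of matches to the core hypoxia response element in the 250 bases before the transcript start (x axis, bases) of 5 genes (rows). Red blocks lie on the forward strand and blue blocks on the reverse strand; Ldha and Slc2a1 carry 4 matches each, Hif1a 3, and Pdk1 and Pfkfb3 2 each.

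The RNA given to the treated retinas mimics miR-143. The labels do not say which strand of the microRNA the mimic carries. The RefSeq entry for the 3p strand, the one usually meant by the name, lies at chr18:57371373-57371394 on the minus strand (GRCr8) and is printed with its seed (bases 2 to 8), the part that pairs with targets, in capitals.
rno-miR-143-3p: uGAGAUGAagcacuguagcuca

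Levels were given as TPM, reads divided by gene length and scaled to the same total in each library, so that levels of different genes can be set side by side. Ldha was the most abundant of the 6, at 2567 TPM over the 12 libraries, and stood at rank 18 of 15916 genes tested. Pgk1 followed at 1116 TPM and rank 67. Hif1a averaged 341 TPM, above 97.6% of the genes tested, and Slc2a1 274 TPM, above 96.7% of them. Pdk1 at 36.3 TPM and Pfkfb3 at 27.1 TPM were the scarce members. The order of Ldha, Pgk1 and the middle pair was the same in each library. Pdk1 lay above Pfkfb3 in each library, most narrowly in OIR scrambled replicate 3 (40.9 TPM for Pdk1 and 39.1 TPM for Pfkfb3).

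The depth, recovered from the steps in the TPM values, was 10537600 to 13175005 reads on genes in a library. The members rested on 245 to 393 reads per library for Pdk1 and 17765 to 32612 for Ldha, the 2 extremes, and the counting error of 1 value was at most 6.39%. Whether replicates are separate animals is not stated in the labels, and p-values therefore cover the spread between libraries only, which may be technical. The columns of OIR and sham libraries carry separate runs of numbers, and those of mimic and scrambled libraries different letters, whose meaning is not given, so these cannot be told apart from the groups. Sham mimic replicate 1 and sham scrambled replicate 1 carry the same number. In whole retina, fewer cells of a type and less RNA per cell cannot be told apart.

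OIR was compared with sham to see whether the 6 transcripts differ in the ischaemic retina. Averaged over both injected RNAs, Pdk1, Pfkfb3, Ldha and Pgk1 were higher in OIR and Hif1a was lower, while Slc2a1 did not pass the test (limma across 15916 genes, Benjamini-Hochberg adjusted p below 0.05). The rises ran from 12.9% for Pgk1 to 40.5% for Pfkfb3 in mean TPM, and Hif1a fell by 13.7%. Of all genes tested, 17.5% were called higher and 12.8% lower in this comparison, 30.2% in all, against 4 higher and 1 lower of the 6. The 6 were chosen with earlier results of these data known, so these shares are a description and no test of the set. Higher calls made up 57.8% of all calls, against 48.4% after median-ratio scaling and 45.7% after quantile normalisation. After median-ratio scaling 2 members were called higher, and after quantile normalisation 3. The median log2 fold change of the 6 was 0.20, against 0.04 over all genes tested. Of the 5 calls, those of Pdk1, Pfkfb3 and Hif1a held in each of 24 alternative settings run, and those of Ldha and Pgk1 did not.

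**Figure D2:**
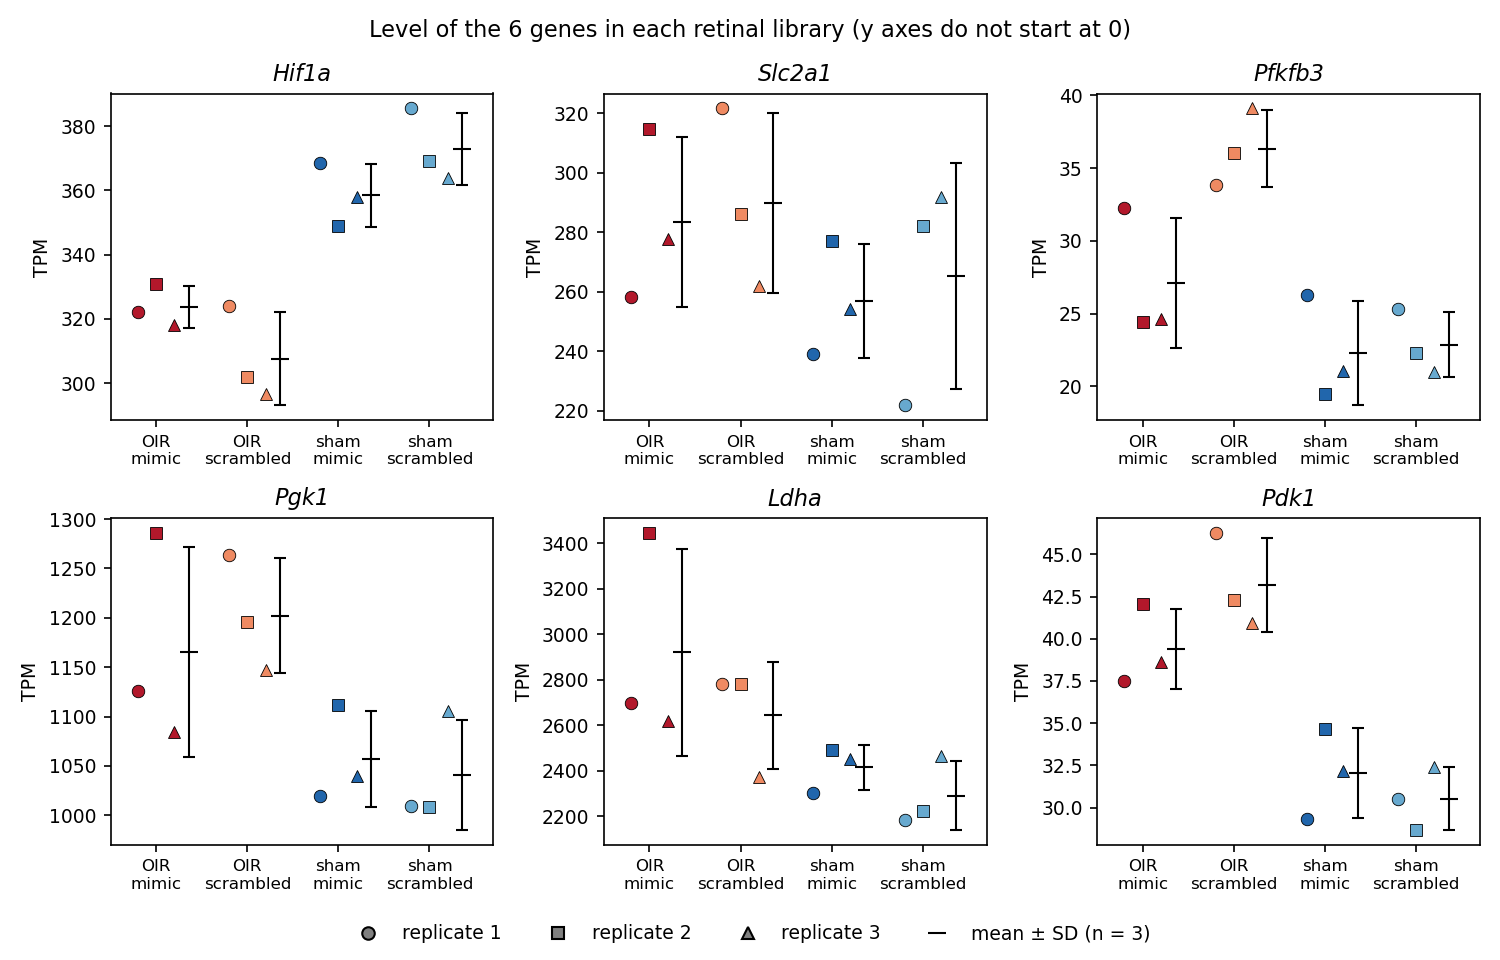
TPM (y axes, which do not start at 0) of the 6 genes in each of the 12 libraries by group (x axis); symbols mark the replicate number, and bars the mean ± SD of 3 libraries. For Pdk1 each OIR library lies above each sham library and for Hif1a each lies below, while the ranges of the other 4 genes overlap between the 6 OIR and the 6 sham libraries.

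Hif1a (ENSRNOG00000008292), the oxygen-regulated subunit itself, stood at 322, 331 and 318 TPM in OIR mimic retinas and at 324, 302 and 297 TPM in OIR scrambled retinas. It stood at 368, 349 and 358 TPM in sham mimic retinas and at 386, 369 and 364 TPM in sham scrambled retinas. All 6 OIR libraries lay below all 6 sham libraries, a pattern shared by 7.89% of the genes tested. The averaged log2 fold change was -0.21 (SE 0.04, limma adjusted p 0.00143). With scrambled RNA alone the log2 fold change was -0.28 (SE 0.05, limma adjusted p 0.0082). With the mimic it was -0.15 (SE 0.05), which did not pass (limma adjusted p 0.0741). The averaged value of the regulator's transcript lay below 0, and those of the 5 downstream transcripts lay above 0, 4 of them with a call.

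Slc2a1 (ENSRNOG00000007284), the glucose transporter at the entry of the pathway, stood at 258, 315 and 278 TPM in OIR mimic retinas and at 322, 285.9 and 262 TPM in OIR scrambled retinas. In sham mimic retinas the values were 239, 277 and 254 TPM, and in sham scrambled retinas 222, 282 and 291.9 TPM. The 2 conditions overlapped broadly, and 1 sham scrambled library, replicate 1, had the lowest value of the 12. The averaged log2 fold change was 0.14 (SE 0.08, limma adjusted p 0.239), with an unadjusted 95% interval from -0.04 to 0.31. It was 0.07 without sham scrambled replicate 1 and 0.05 without both sham libraries of the shared number. A rise of the size of that of Ldha lies within this interval. Slc2a1 had the largest spread relative to its mean in sham scrambled retinas, a coefficient of variation of 14.3%, against 3.03% for Hif1a.

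Pfkfb3 (ENSRNOG00000018911), whose product speeds the committed step of glycolysis, stood at 32.3, 24.4 and 24.6 TPM in OIR mimic retinas and at 33.8, 36.04 and 39.1 TPM in OIR scrambled retinas. Sham mimic retinas had 26.3, 19.5 and 21.1 TPM and sham scrambled retinas 25.3, 22.3 and 21.0 TPM. The OIR scrambled libraries were well above every sham library, while 2 of the 3 OIR mimic libraries lay within the sham range. With scrambled RNA the mean TPM was 58.8% higher in OIR, the largest rise of the 6 genes, with a log2 fold change of 0.65 (SE 0.13, limma adjusted p 0.0117). With the mimic the log2 fold change was 0.27 (SE 0.13, limma adjusted p 0.183), and averaged it was 0.46 (SE 0.09, limma adjusted p 0.0034). The value with the mimic was 0.14 without OIR mimic replicate 1, and it ran up to 0.39 with other libraries left out.

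Pgk1 (ENSRNOG00000058249), the enzyme of the first ATP-yielding step of glycolysis, stood at 1126, 1286 and 1085 TPM in OIR mimic retinas and at 1263, 1196 and 1147 TPM in OIR scrambled retinas. Sham mimic retinas had 1019, 1112 and 1040 TPM and sham scrambled retinas 1009, 1008 and 1106 TPM. Of the OIR libraries, mimic replicate 3 was the one inside the span of the sham libraries. The averaged log2 fold change was 0.17 (SE 0.05, limma adjusted p 0.0284), and neither injection alone passed (limma adjusted p 0.10 with scrambled RNA and 0.233 with the mimic). After median-ratio scaling of the libraries the averaged value was 0.14 (limma adjusted p 0.197). The call was also lost without any 1 of OIR scrambled replicate 1 or 2, sham mimic replicate 1 or 3 or sham scrambled replicate 1 or 2 (limma adjusted p 0.051 to 0.0685), and without both sham libraries of the shared number (0.109).

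Ldha (ENSRNOG00000013009), the lactate dehydrogenase subunit that favours lactate, stood at 2696, 3445 and 2620 TPM in OIR mimic retinas and at 2781, 2780 and 2371 TPM in OIR scrambled retinas. Sham mimic retinas had 2301, 2489 and 2453 TPM and sham scrambled retinas 2184, 2225 and 2464 TPM. OIR mimic replicate 2 was far above the rest, and OIR scrambled replicate 3 lay within the sham range. The averaged log2 fold change was 0.23 (SE 0.07, limma adjusted p 0.0332), with no call for scrambled RNA (0.20, SE 0.11, limma adjusted p 0.249) or the mimic alone (0.26, SE 0.11, limma adjusted p 0.105). The value with the mimic was 0.14 without OIR mimic replicate 2 and 0.15 with arrayWeights. The averaged call was lost after median-ratio scaling (0.20, limma adjusted p 0.156), after quantile normalisation (0.16, limma adjusted p 0.119) and with plain eBayes (limma adjusted p 0.0517). It was also lost without OIR scrambled replicate 1 or 2, any sham mimic library or sham scrambled replicate 1 or 2 (limma adjusted p 0.0503 to 0.075), and without both sham libraries of the shared number (0.126). Without OIR mimic replicate 2 the call was kept.

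Pdk1 (ENSRNOG00000001517), the kinase that inhibits pyruvate dehydrogenase, stood at 37.5, 42.1 and 38.6 TPM in OIR mimic retinas. In OIR scrambled retinas the values were 46.3, 42.3 and 40.9 TPM. Sham mimic retinas had 29.3, 34.6 and 32.2 TPM and sham scrambled retinas 30.5, 28.7 and 32.4 TPM. All 6 OIR libraries lay above all 6 sham libraries, which held for 9.78% of the genes tested. The averaged log2 fold change was 0.39 (SE 0.06, limma adjusted p 0.000606), and with scrambled RNA it was 0.49 (SE 0.08, limma adjusted p 0.00517). Pdk1 was the single member called with the mimic, at 0.29 (SE 0.08, limma adjusted p 0.0299). That call was lost without OIR mimic replicate 2 or 3 or sham mimic replicate 1 or 3 (limma adjusted p 0.0613 to 0.106). It was also lost after median-ratio scaling (limma adjusted p 0.096), after quantile normalisation (limma adjusted p 0.0949) with only the 2 groups fitted (limma adjusted p 0.0735) or without both sham libraries of the shared number (limma adjusted p 0.122).

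Split by injection, 3 of the 6 passed with scrambled RNA, Pfkfb3 and Pdk1 higher and Hif1a lower. Of all genes, 10.7% passed there, 6.79% higher and 3.91% lower. Higher calls made up 63.4% of these, against 50.1% after median-ratio scaling and 44.8% after quantile normalisation. With the mimic 1 of the 6 passed, Pdk1, where 19.5% of all genes did, 9.76% higher and 9.77% lower. At an unadjusted p below 0.05 there were 4 members with scrambled RNA (26.0% of all genes), 3 with the mimic (32.3%) and 5 averaged (40.9%). These comparisons use separate libraries, and their difference is the interaction given further on.

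Counted by libraries that did not overlap, Hif1a was lower and Pfkfb3, Pgk1 and Pdk1 were higher with scrambled RNA, where 12.9% of all genes were wholly lower and 19.7% wholly higher (32.7% either way). With the mimic Hif1a was wholly lower and Ldha and Pdk1 wholly higher, where the shares of all genes were 16.0% and 20.1% (36.1% either way). Over 6 against 6 libraries, 2 of the 6 genes, Hif1a and Pdk1, did not overlap, against 17.7% of all genes.

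An exact permutation test over the libraries, 6 OIR against 6 sham, gave the same 5 calls. The two-sided exact p was 0.00216 for Hif1a and for Pdk1, the smallest this design can give, 0.00866 for Pgk1 and for Ldha, 0.013 for Pfkfb3 and 0.128 for Slc2a1. Adjusted over all genes, the exact p was 0.0123 for Hif1a and Pdk1, 0.033 for Pgk1 and Ldha, 0.0445 for Pfkfb3 and 0.246 for Slc2a1, and 29.2% of all genes passed. Within 1 injection 3 against 3 cannot go below 0.1, so no exact test was made there. The exact calls of Pgk1 and Ldha were lost after median-ratio scaling (adjusted exact p 0.153 for Pgk1 and 0.129 for Ldha). The exact call of Pfkfb3 was lost without any 1 of 8 libraries, all but OIR mimic replicates 2 and 3 and the first replicate of each sham group (adjusted exact p 0.0618 to 0.0767). That of Pgk1 was lost without OIR scrambled replicate 1, sham mimic replicate 1 or 3 or sham scrambled replicate 1 or 2 (adjusted exact p 0.0511 to 0.0611). That of Ldha was lost without any OIR mimic library, OIR scrambled replicate 1 or 2, sham mimic replicate 1 or 3 or sham scrambled replicate 1 or 2 (adjusted exact p 0.050 to 0.0665).

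**Figure D3:**
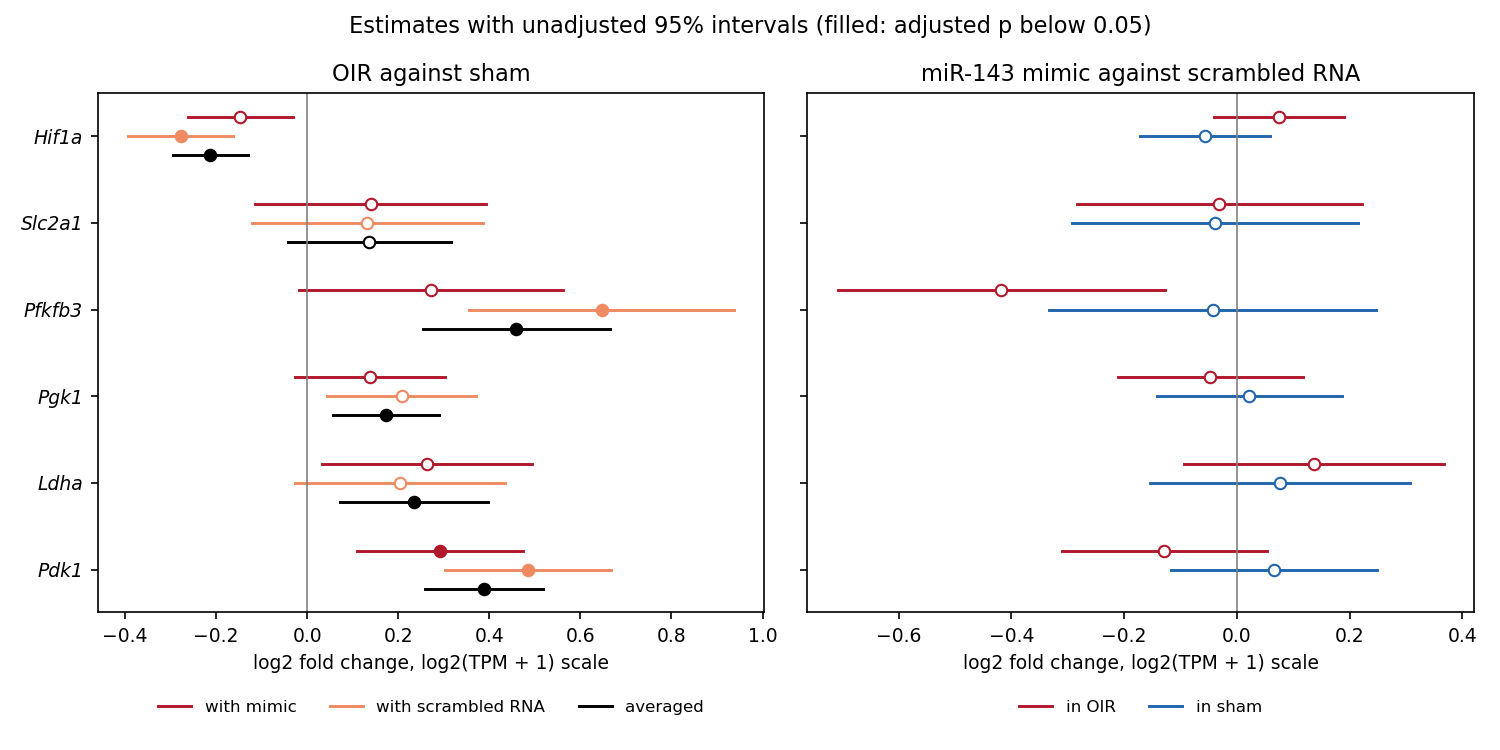
Log2 fold changes (x axis) on the log2(TPM + 1) scale with unadjusted 95% intervals for the 6 genes (rows); left, OIR against sham with the mimic, with scrambled RNA and averaged; right, the mimic set against scrambled RNA within OIR and within sham. Filled points have a limma adjusted p below 0.05; on the left, 4 averaged points are filled above 0 and that of Hif1a below 0, and on the right none is filled.

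The mimic was compared with scrambled RNA within OIR and within sham. In OIR 0 of the 6 genes passed in limma, as did 0.0% of all genes tested, and voom on the recovered reads also called 0. Over 25 alternative settings the number of genes called stayed at 0 in 18 and rose in 7. The highest was 28, without OIR mimic replicate 1 and OIR scrambled replicate 3. No member was called in any of these settings. At an unadjusted limma p below 0.05 there was 1 member, against 1491 of all genes (9.37%). That member was Pfkfb3, at 27.1 ± 4.48 TPM in OIR mimic retinas and 36.3 ± 2.65 TPM in OIR scrambled retinas (SD, n = 3 each). All 3 mimic libraries lay below the 3 scrambled libraries, which held for 9.01% of all genes. No member was wholly higher, as 3.64% of all genes were (12.6% either way). Its log2 fold change was -0.42 (SE 0.13, unadjusted 95% interval -0.71 to -0.13), and it did not pass the correction (limma unadjusted p 0.00884, adjusted p 0.462). Over the 25 alternative settings it stayed negative, and the lowest limma adjusted p, 0.0825, came without OIR mimic replicate 1, the library with the highest mimic value. The other 5 genes had log2 fold changes between -0.13 for Pdk1 and 0.14 for Ldha, each with an interval that included 0. The value of Ldha was 0.01 without OIR mimic replicate 2, 0.0033 with arrayWeights and 0.06 without OIR scrambled replicate 3.

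In sham retinas 0 of the 6 genes and 0.0% of all genes passed in limma, and voom also called 0. Over 25 alternative settings the number of genes called stayed at 0 in 19 and rose in 6, to at most 2. At an unadjusted limma p below 0.05 there were 0 members, against 333 of all genes (2.09%). Mimic and scrambled libraries overlapped for all 6 genes, while 2.83% of all genes were wholly higher and 3.92% wholly lower (6.75% either way). The log2 fold changes lay between -0.06 for Hif1a and 0.08 for Ldha. Pfkfb3 had a log2 fold change of -0.04 (SE 0.13), with an unadjusted 95% interval from -0.33 to 0.25. For Slc2a1 the interval ran from -0.29 to 0.21 and for Hif1a from -0.17 to 0.06.

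The interaction sets the effect of the mimic in OIR against that in sham. In limma 0 of the 6 genes and 0.0% of all genes passed, and voom also called 0. Over 24 alternative settings the number of genes called stayed at 0 in 20 and rose in 4, to at most 2. At an unadjusted limma p below 0.05 there were 589 genes (3.7%) and 0 members. Over 24 alternative settings the unadjusted limma p of Pfkfb3 was below 0.05 in 9, with 0.0141 as the lowest (without OIR mimic replicate 1), that of Pdk1 in 1 (0.00925, with arrayWeights) and that of Hif1a in 1 (0.0468, without OIR scrambled replicate 1). The lowest limma adjusted p of a member over these settings was 0.311. The interaction of Pfkfb3 was -0.37 (SE 0.19, unadjusted 95% interval -0.79 to 0.04, limma unadjusted p 0.0703, adjusted p 1.00). The mimic effect on Pfkfb3 is therefore not shown to differ between OIR and sham. For Pdk1 the interaction was -0.19 (SE 0.12) and for Hif1a 0.13 (SE 0.07), with intervals that included 0.

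Within groups, Slc2a1, Pgk1, Ldha and Pdk1 tended to move together and Pfkfb3 against them, which was not tested. Deviations of log2(TPM + 1) from the group mean were taken over the 12 libraries, and all genes of a library share its depth and scaling. Those of a group sum to 0, so the 12 values are not independent. Correlations of them are given as a description of 15 pairs. They were taken without median-ratio scaling, whose factors ran from 0.945 (OIR mimic replicate 2) to 1.044 (OIR scrambled replicate 3). How far shifts shared by many genes of a library enter these correlations was not tested. They were not set beside those of all gene pairs. Pgk1 and Ldha moved together closely (Pearson r 0.92, Spearman rho 0.96), and so did Pgk1 and Pdk1 (r 0.85, rho 0.77) and Slc2a1 and Pgk1 (r 0.75, rho 0.76). Pfkfb3 ran against all 4, with r -0.80 and rho -0.75 for Slc2a1, r -0.75 and rho -0.76 for Pdk1, r -0.58 and rho -0.56 for Ldha and r -0.58 and rho -0.57 for Pgk1. Hif1a was close to unrelated to the rest, with r from -0.02 to 0.25.

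Pfkfb3 and Slc2a1 lay on opposite sides of their group means in 9 of the 12 libraries and on the same side in 3. For Pfkfb3 the opposite side held in 8 libraries against Pgk1, 10 against Ldha and 8 against Pdk1. In OIR mimic replicate 2, Ldha lay 0.25, Slc2a1 0.15, Pgk1 0.15 and Pdk1 0.09 log2 units above the group mean, while Pfkfb3 had a deviation of -0.13. In OIR mimic replicate 1 Pfkfb3 lay 0.25 above, and Slc2a1 (-0.13), Ldha (-0.10), Pdk1 (-0.07) and Pgk1 (-0.05) had negative deviations. In both sham libraries with the shared number, Pfkfb3 was the highest of its group (0.24 with the mimic and 0.14 with scrambled RNA) and Slc2a1 the lowest (-0.10 and -0.25). In OIR scrambled replicates 1 and 3, sham mimic replicate 2 and sham scrambled replicate 3, Pfkfb3 lay opposite to Slc2a1, Pgk1, Ldha and Pdk1. Not every library followed this. In OIR mimic replicate 3, Pfkfb3 (-0.12) was low together with Ldha (-0.15), Pgk1 (-0.10), Pdk1 (-0.03) and Slc2a1 (-0.03). In sham scrambled replicate 2, Pfkfb3 (-0.03) was low with Pdk1 (-0.09), Pgk1 (-0.04) and Ldha (-0.04), while Slc2a1 (0.10) was high.

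**Figure D4:**
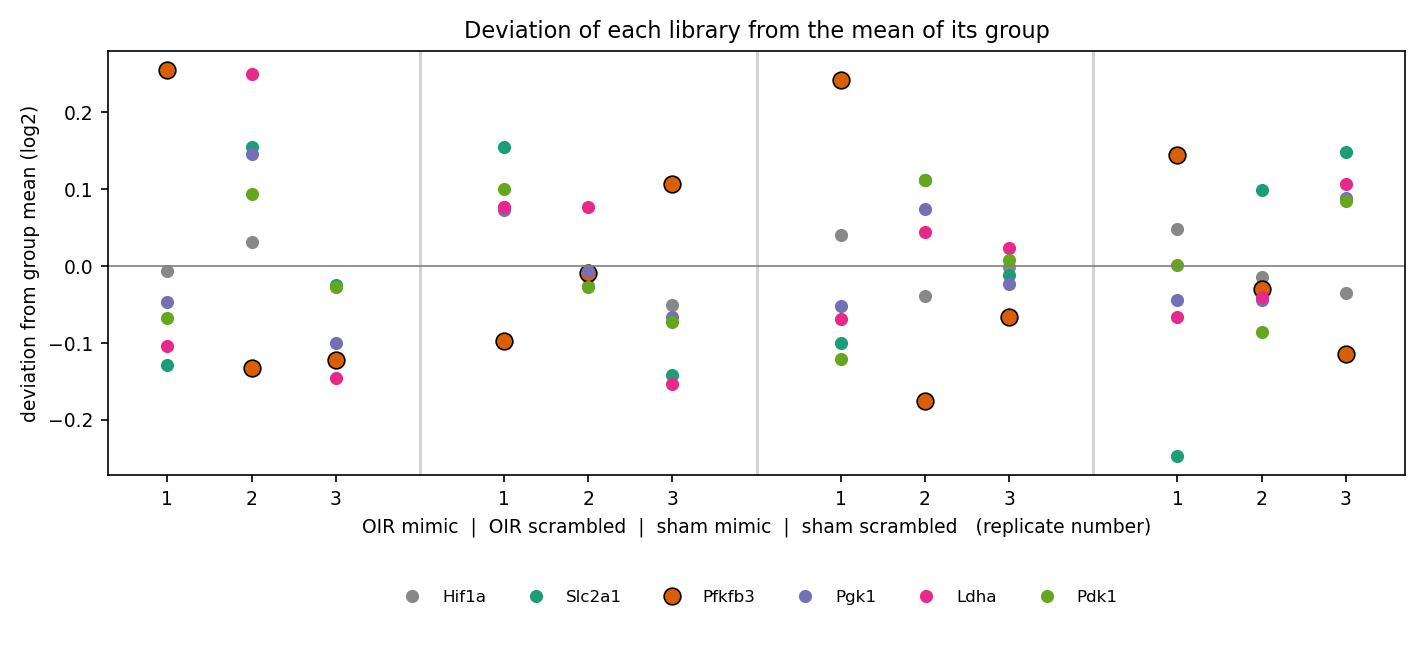
Deviation of each library from its group mean (y axis, log2(TPM + 1) units) for the 6 genes, by group and replicate number (x axis). Pfkfb3, drawn larger with a black rim, lies on the side of 0 opposite to Slc2a1 in OIR mimic replicates 1 and 2 (0.25 against -0.13 and -0.13 against 0.15) and in both sham libraries with replicate number 1.

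To set the members beside the rest of the retina, each gene's profile over the 12 libraries was compared with the mean z-score of the 6. Pgk1 followed this mean most closely among the members (Pearson r 0.98), followed by Pdk1 (0.91), Ldha (0.88), Slc2a1 (0.81) and Pfkfb3 (0.47), while Hif1a had r -0.66. The 2 other genes most like it were ENSRNOG00000015076 (r 0.95) and ENSRNOG00000019428 (r 0.95), for which no symbol was at hand. The gene ENSRNOG00000015076 averaged 4.65 TPM in OIR mimic and 5.04 TPM in OIR scrambled retinas, against 1.22 TPM in sham mimic and 1.06 TPM in sham scrambled retinas. The gene ENSRNOG00000019428 averaged 141 and 149 TPM in OIR mimic and OIR scrambled retinas, against 117 and 113 TPM in sham mimic and sham scrambled retinas. These r values are descriptions over 12 libraries, and they include the difference between OIR and sham. Each member is part of the mean it is set against, which raises its r. The 2 other genes were picked as the highest of all non-members, so the r values of the 2 kinds are not alike.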

How the data were processed

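The authors deposited 1 table of TPM values for 32883 Ensembl genes, with 12 columns that each sum to 1000000; 0 columns went unused. Lines at the top of the table pair column names with sample titles. Per the labels' protocols, retinal RNA was read as single-end sequence; the protocol speaks of miRNA libraries, whereas the table lists genes. Build rn6 and the tools FastQC, TopHat, Cufflinks and Cuffdiff stand in the submitters' processing notes, with no roles. For 2 libraries (OIR mimic replicate 1, OIR scrambled replicate 3) the tags for disease and transfection are missing, and titles gave the groups.

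The 15916 genes with at least 1 TPM in at least 3 libraries, all 6 members among them, were tested on log2(TPM + 1), a scale that understates changes of low genes. The model in limma 3.58.1 (R 4.3.3) had a mean for each group (8 residual degrees of freedom) and moderated variances with a trend, robustly. Benjamini-Hochberg adjustment ran over all genes of a comparison, at a threshold of 0.05. Whole reads were recovered for all 22310 genes above 0 (tolerance 0.0001 of a read plus 1e-08 of the count, largest relative error 9.5e-05). Recovery and fit were tested on simulated data. Alternatives covered pseudocount, filter, scaling, plain eBayes, arrayWeights, a replicate block, only the groups compared, voom, and leaving out each library or the 2 without tags. Leaving out both sham libraries of the shared number was added after the data were seen.

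The members and lists were chosen with earlier results of these data known. All members and the 2 genes most like their mean profile are named. Lists of related pathway genes and cell type markers, set by symbol, were not analysed here, since the reference table of 47357 genes holds 0 Ensembl identifiers; the tissue label was therefore not checked against markers.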

Additional observations from a re-analysis of the deposited data

Results flagged for a closer look

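The mimic libraries of Hif1a lay on opposite sides of the scrambled mean in the 2 conditions, although mimic and scrambled libraries overlapped in both and neither difference passed (limma adjusted p 0.698 in OIR and 1.00 in sham). Each OIR mimic library (318 to 331 TPM) lay above the mean of the OIR scrambled libraries (308 TPM), and each sham mimic library (349 to 368 TPM) lay below the mean of the sham scrambled libraries (373 TPM). The test of this difference, the interaction, gave 0.13 on the log2 scale (SE 0.07, limma unadjusted p 0.106, adjusted p 1.00) and did not pass. For none of the 6 genes did the highest or lowest of the 6 OIR or 6 sham libraries stand apart by Dixon's criterion, the closest being Ldha in OIR mimic replicate 2 (gap of 0.574 of the range, against a critical value of 0.625).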

How the results depend on the processing

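For OIR against sham the members kept their direction in each alternative run, with 414 log2 fold changes on the same side of the threshold, 27 that lost a call and 3 that gained one. With both libraries of the shared number left out, 2 members stayed called higher and 1 lower in the averaged comparison. Calls gained with arrayWeights were Pgk1 (limma adjusted p 0.00931) and Ldha (0.0213) with scrambled RNA and Hif1a (0.0168) with the mimic. The exact differences after median-ratio scaling were 0.14 for Pgk1 and 0.20 for Ldha. With 1 library left out they lay between 0.15 and 0.20 for Pgk1, between 0.17 and 0.28 for Ldha and between 0.40 and 0.53 for Pfkfb3, whose adjusted exact p then reached 0.0767 at most.

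The number of genes called with scrambled RNA was 3322 with arrayWeights, 931 without both untagged libraries, 735 without both libraries of the shared number and 806 to 2175 with 1 library left out, against 1704; it was 846 without OIR scrambled replicate 3, and 915, 806 and 1088 without sham scrambled replicates 1, 2 and 3. With the mimic it was 5270 with arrayWeights and 2041 (without sham mimic replicate 3) to 3278 with 1 library left out, against 3108. For the mimic in OIR, against 0, it was 1 with a pseudocount of 0.1, no filter, plain eBayes, arrayWeights or only the groups compared, 28 without both untagged libraries and 0 to 25 (without OIR mimic replicate 1) with 1 library left out. In sham it was 2 with a pseudocount of 0.1, 1 with 0.5 or arrayWeights and 0 to 1 with 1 library left out; for the interaction 2 with a pseudocount of 0.1, 1 with no filter or plain eBayes and 0 to 1. The cause was not tested. Scaling moved the median log2 fold change of all genes by less than 0.1, but that median was itself small. For OIR against sham, averaged, it was 0.0447, against 0.0102 after median-ratio scaling and -0.0020 after quantile normalisation. The averaged call of Ldha was lost under both scalings, and that of Pgk1 under median-ratio scaling.

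Of the mimic effects and interactions of members, 423 kept their sign and 21 did not, none of the 21 past the threshold. Slc2a1 in OIR was 0.012 after median-ratio scaling and -0.11 to 0.047 with 1 library left out; Pgk1 in OIR was -0.12 to 0.0022. In sham, with 1 library left out, Slc2a1 was -0.16 to 0.035, Pfkfb3 -0.16 to 0.044 and Pgk1 -0.015 to 0.066 (-0.018 after quantile normalisation). The interaction of Slc2a1 was -0.012 after quantile normalisation and -0.070 to 0.13 with 1 library left out, and that of Ldha -0.11 with arrayWeights and -0.066 to 0.13.

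The replicate block changed no call of a member: with it 5026 genes were called on average over injections, 1799 for scrambled RNA and 3300 for the mimic, and 0 for the mimic against scrambled RNA and for the interaction. Correlations of the deviations of same-numbered libraries did not all exceed 0.1, and the numbers were not taken as pairs. The correlations ran from -0.039 to 0.188 over 11 pairs, and reached 0.258 for the sham libraries that also share a column number. Among the 3 libraries of the other group, 7 of the 12 correlated highest with their own number. These included replicate 1 in each pair of groups (0.188, 0.0966, 0.0373 and 0.258). Whether same-numbered libraries belong together was not settled by these values.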
